A study of Mus musculus with 34 samples.

Results

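The genes described here are Socs1, Socs2, Socs3, Cish, Spsb1 and Spsb3, and the measurement is the binding of AP-1 proteins around them. Every deposited peak with its midpoint in the gene body or within 20 kb on either side was taken as belonging to a gene, with genes from GENCODE on mm10. This gave 384 of the 596383 peaks in 30 lists, 291 of them from the 25 AP-1 lists, at 6 of 22028 protein-coding genes. Overlapping AP-1 peaks, from 1 shared bp on, were merged to loci, and 43 of 70626 AP-1 loci had a peak in these windows.

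The series mapped transcription factors by ChIP-seq in TGEMs, macrophages elicited in the peritoneum of mice by thioglycollate. The cells had received either vehicle (Veh) or 100 ng/mL of the TLR4 ligand KLA for 1 h. C57BL/6 TGEMs came from 8-week-old male mice, labelled C57Bl/6EiJ, and C57BL/6J in the methods. They gave lists for the monomers ATF3, Jun, JunD, Fos, FosL2 and JunB, for PU.1 and for CEBPa in both treatments, and for PPARg in Veh. BALB/cJ TGEMs (8-week-old male mice) gave lists for the same monomers except FosL2 in both treatments. TGEMs of PPARg knockout mice, labelled C57Bl6-PPARgKO in the titles, gave ATF3, Jun and JunD in Veh. The methods do not give the sex of the knockout mice. The age of the knockout mice and the way in which the gene was deleted are not given in the sources used here, and neither is whether cells of several mice were pooled.

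SOCS proteins and CISH are feedback inhibitors of cytokine signalling: cytokine receptors activate JAK kinases and STAT factors, STATs induce Socs genes, and the SOCS proteins then block the receptor or the kinase. All of them, and the SPSB proteins, carry a SOCS box that recruits a ubiquitin ligase to the bound target. AP-1 is a dimer of bZIP proteins of the Jun, Fos and ATF families, which bind the TRE (TGACTCA) or the CRE and are activated by TLR4 in macrophages.

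Each condition has 1 list that combines its replicate experiments, so no comparison below has replicates and none was tested between samples. A peak's count is a whole number not scaled to library size, and it was read only as its percentile within its own list, which also depends on how many weak peaks the list holds. A percentile of 100 is the strongest peak of the list. Ranges in brackets are the percentiles at the exact 95% Poisson bounds of the count, which cover counting error only. Of the 30 lists, 28 held more than 100 peaks (463 to 41573 peaks, with counts that summed to between 9196 and 13809143 in a list). The BALB/cJ Fos Veh list was empty and the BALB/cJ JunB Veh list held 9 peaks. The C57BL/6 Fos Veh and JunB Veh lists were short as well (1804 and 463 peaks), so the absence of a peak from these lists says little.

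A set of 6 loci carries most of what follows, and the sequence under 1 representative peak of each is shown from the mm10 reference. The first 3 and the Socs2 sequence are whole JunD peaks after KLA, the Cish sequence is the central 200 bases of such a peak, and the last is the part of a Jun Veh peak that lies outside annotated exons. Capitals mark exact matches on either strand to the TRE, the CRE (TGACGTCA, TGAGCTCA or TGACCTCA), the PU.1 site ACTTCCT, the CEBP site TTGCNNAA, the STAT site TTCNNNGAA and the NF-kB consensus.
Socs3, 23.4 kb downstream of the start (mm10 chr11:117946513-117946716, plus strand): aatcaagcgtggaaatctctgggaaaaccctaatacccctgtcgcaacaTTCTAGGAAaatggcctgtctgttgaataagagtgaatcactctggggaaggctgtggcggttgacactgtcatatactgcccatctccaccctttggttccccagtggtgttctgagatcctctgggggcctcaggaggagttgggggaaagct
Socs3, 17.2 kb upstream (mm10 chr11:117987175-117987392, plus strand): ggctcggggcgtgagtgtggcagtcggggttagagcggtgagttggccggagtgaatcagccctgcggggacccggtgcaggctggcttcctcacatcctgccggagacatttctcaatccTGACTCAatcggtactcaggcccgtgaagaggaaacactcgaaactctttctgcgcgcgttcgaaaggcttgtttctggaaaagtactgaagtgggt
Socs3, 8.0 kb upstream (mm10 chr11:117977878-117978102, plus strand): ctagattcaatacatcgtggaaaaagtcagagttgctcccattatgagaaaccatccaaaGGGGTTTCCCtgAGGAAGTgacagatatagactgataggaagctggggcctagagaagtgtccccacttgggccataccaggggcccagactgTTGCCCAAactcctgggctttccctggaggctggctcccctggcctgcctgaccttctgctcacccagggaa
Cish, 17.3 kb upstream (mm10 chr9:107278572-107278771, plus strand): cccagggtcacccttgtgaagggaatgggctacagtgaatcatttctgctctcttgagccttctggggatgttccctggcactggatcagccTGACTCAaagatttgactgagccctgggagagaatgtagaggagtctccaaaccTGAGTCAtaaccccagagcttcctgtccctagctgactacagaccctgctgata
Socs2, 45.0 kb downstream (mm10 chr10:95372022-95372237, plus strand): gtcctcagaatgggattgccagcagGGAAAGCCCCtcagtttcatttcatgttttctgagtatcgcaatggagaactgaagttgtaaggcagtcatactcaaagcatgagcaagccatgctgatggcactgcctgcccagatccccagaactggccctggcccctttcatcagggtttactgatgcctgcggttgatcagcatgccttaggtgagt
Spsb3 promoter (mm10 chr17:24886350-24886546, plus strand): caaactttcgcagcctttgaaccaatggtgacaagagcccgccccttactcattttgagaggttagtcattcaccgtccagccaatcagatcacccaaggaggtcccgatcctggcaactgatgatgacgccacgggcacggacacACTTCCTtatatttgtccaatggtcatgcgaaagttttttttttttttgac
The Socs3 sequence 17.2 kb upstream held 1 TRE, and the Cish sequence held 2. The Socs3 sequence 23.4 kb downstream held a STAT site and no exact TRE or CRE. The Socs3 sequence 8.0 kb upstream held an NF-kB, a PU.1 and a CEBP site, the Socs2 sequence an NF-kB match alone, and the Spsb3 sequence a PU.1 site alone. A match describes these letters and is not a measured site. These stretches were read whole, whereas the counts of loci with a motif given later cover the central 200 bp of each joined locus.

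AP-1 binding differed widely among the 6 genes. In Veh, 4 of the 6 genes (Socs3, Cish, Spsb1 and Spsb3) had a peak in at least 1 of the 6 C57BL/6 AP-1 lists, where 56.3% of all protein-coding genes did. After KLA all 6 had one, against 59.2%. Socs3, Cish and Socs2 had a peak of all 6 monomers after KLA, which 21.1% of all protein-coding genes had, and Spsb3 had peaks of 5 monomers, Socs1 and Spsb1 of 2 each. Socs1 and Socs2 had no AP-1 peak in any C57BL/6 Veh list.

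By monomer, Veh peaks of ATF3 lay at 3 of the 6 genes (47.3% of all protein-coding genes), of Jun at 3 (39.3%) and of JunD at 4 (45.7%). FosL2 Veh peaks lay at 2 (21.2%), Fos Veh peaks at 1 (13.4%) and JunB Veh peaks at 0 (2.34%). After KLA, ATF3 and JunD each had a peak at 6 genes (54.8% and 51.8%). Jun, Fos and FosL2 each had one at Cish, Socs2, Socs3 and Spsb3, that is at 4 genes (37.9%, 44.5% and 27.7%), and JunB at 3 (30.0%). The members' counts in Veh thus differed by less than 2 genes from what the shares of all genes give, and with 6 genes a difference of 1 or 2 genes cannot be read as a difference.

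**Figure D1:**
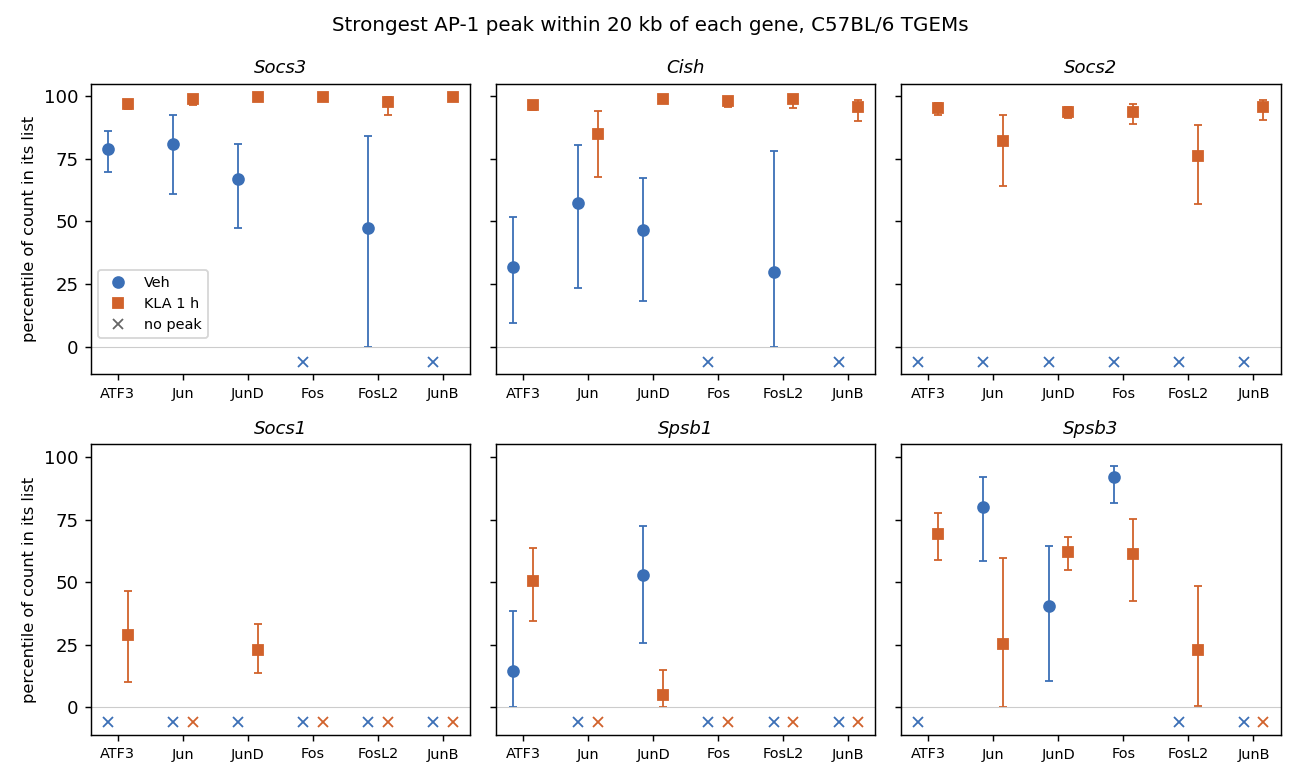
Percentile of count, within its own list, of the strongest peak near each gene (y axis, 0 to 100) for the 6 AP-1 monomers (x axis) in C57BL/6 TGEMs, with Veh as circles and KLA as squares. Bars are the percentiles at the exact 95% Poisson bounds of the count and crosses mark lists with no peak. Socs3 and Cish reach percentiles of 85.1 or more in every KLA list, and Socs2 goes from no Veh peak to peaks in all 6 KLA lists.

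Socs3, which encodes the inhibitor that binds the IL-6 receptor subunit gp130 and JAK kinases, held 207 of the 384 peaks and 18 of the 43 loci. The gene (ENSMUSG00000053113.3) lies on the minus strand at chr11:117966079-117970047, and its window of 44.0 kb was shorter than the median of 57.3 kb over all protein-coding genes. In Veh, 9 AP-1 loci of C57BL/6 lay in the window, a number that 3.48% of the other protein-coding genes reached or exceeded. After KLA it held 15 loci, and 401 other genes (1.82%) had as many or more. The median gene had 1 locus in either treatment.

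The strongest Socs3 locus after KLA was intergenic, 23.4 kb downstream of the start (chr11:117946382-117946920), the one with the STAT match and no exact TRE. JunD had a count of 968 there after KLA, at percentile 99.8 (99.3 to 99.9), which made it number 75 of 31640 peaks. Fos ranked 44 of 24365 (count 244, percentile 99.8) and JunB 61 of 13375 (count 134, percentile 99.5). Jun (count 95, 99.0), FosL2 (116, 97.6) and ATF3 (259, 96.9) were also near the top of their KLA lists. In Veh the same locus was a middling site: ATF3 stood at percentile 63.6 (48.0 to 75.1), JunD at 54.4 (28.2 to 73.1), FosL2 at 47.3 (0 to 84.2) and Jun at 25.8 (0.00643 to 61.0). For each of these 4 monomers the Veh and KLA ranges did not overlap. CEBPa, a macrophage bZIP factor that is no AP-1 member, followed the same course: it had no Veh peak there and a KLA peak with a count of 274, number 125 of 14802 (percentile 99.2). PU.1, the lineage factor of macrophages, was bound in both treatments (percentile 88.5 in Veh and 96.5 after KLA).

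The locus 17.2 kb upstream of Socs3, with its TRE, lies in an intron of the neighbouring gene Pgs1 (chr11:117987136-117987442), 997 bp from the start of Pgs1. It was already strong in Veh. ATF3 was at percentile 79.0 (69.6 to 86.1), Jun at 81.1 (61.0 to 92.6) and JunD at 67.0 (47.3 to 80.7), and FosL2 was weaker at 16.1 (0 to 70.5). After KLA the 6 monomers lay between 85.1 (Jun) and 96.4 (Fos). The Jun and ATF3 ranges overlapped between treatments, and those of JunD and FosL2 did not. CEBPa bound there in Veh and after KLA (84.9 and 88.9).

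Other Socs3 loci appeared only in the KLA lists of C57BL/6. The locus 8.0 kb upstream (chr11:117977830-117978192), with its NF-kB, PU.1 and CEBP matches, had no AP-1 peak in any Veh list of C57BL/6, BALB/cJ or PPARg KO, and no PU.1 or CEBPa Veh peak. After KLA all 6 monomers were bound, between percentile 49.5 (FosL2) and 76.3 (JunD), and PU.1 stood at 90.0 and CEBPa at 56.5. The locus 1180 bp upstream had KLA peaks of 5 monomers, led by Fos (count 89, percentile 81.1, 71.0 to 88.5). FosL2 was the monomer without one.

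Nearer the gene, binding was weaker. The locus 838 bp inside the gene was close to the RefSeq start, which is 681 bp downstream of the GENCODE start. It had a JunD Veh peak at percentile 22.1 (0 to 50.7) and KLA peaks of JunD (66.9), FosL2 (60.5), ATF3 (55.8) and Fos (34.8). The only AP-1 peak within 1 kb upstream, 75 bp from the start, was a weak BALB/cJ JunD Veh peak (count 20, percentile 9.52). At 9.9 kb downstream, Jun had about the same percentile in Veh (77.1) and after KLA (77.4), whereas ATF3 stood at 42.1 (21.4 to 59.8) in Veh and 83.2 (76.9 to 88.3) after KLA. A second ATF3 Veh peak beside it (43.5) had no overlapping KLA peak. PU.1 was near the top of its lists there, at 94.7 in Veh and 98.0 after KLA.

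The remaining Socs3 loci with many lists had intermediate percentiles. The locus 6.4 kb downstream had Veh peaks of JunD (64.9, 43.7 to 79.5), ATF3 (47.4) and Jun (41.9) and a PPARg peak (83.5), and no JunB peak in C57BL/6, whereas BALB/cJ JunB had one after KLA (57.9). The locus 7.7 kb downstream had Jun as its only C57BL/6 Veh peak (25.8) and all 6 monomers after KLA, among them JunD at 55.9. The locus 9.6 kb upstream had ATF3 as its only Veh peak (20.4, 0.972 to 42.8) and 5 monomers after KLA, led by JunD (71.5) and ATF3 (68.7, 58.1 to 77.2). The monomers with a called Veh peak differed among these 3 loci, but several of these peaks were weak. A monomer without a call may lie just under the cut-off, so different Veh sets cannot be read from this.

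Cish, a STAT5 target that encodes another SH2-containing feedback inhibitor, had 84 peaks at 9 loci. The gene (ENSMUSG00000032578.7, chr9:107296026-107302784, plus strand) had 4 AP-1 loci in Veh and 8 after KLA in C57BL/6, which 18.5% and 8.56% of the other protein-coding genes reached or exceeded. Its leading locus was in an intron of the neighbouring kinase gene Mapkapk3, 17.3 kb upstream of Cish and 11139 bp from the Mapkapk3 start (chr9:107278528-107278948), so its distance to Mapkapk3 was the shorter one. FosL2 ranked 127 of 10619 after KLA (count 126, percentile 98.8), JunD 403 of 31640 (count 848, 98.7) and Fos 469 of 24365 (count 174, 98.0). ATF3 was at 96.6, JunB at 95.5 and Jun at 85.1. In Veh, Jun stood at 57.2 (23.5 to 80.5), JunD at 46.4 (18.2 to 67.5), FosL2 at 29.7 (0 to 78.2) and ATF3 at 14.3 (0 to 38.6). As at the downstream Socs3 locus, ATF3, FosL2 and JunD went from the lower or middle part of their Veh lists to the top of their KLA lists with no overlap of the ranges, while those of Jun overlapped.

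The Cish promoter was bound mostly after KLA. The locus 138 bp downstream of the GENCODE start, in an annotated UTR and upstream of the RefSeq start, had a single C57BL/6 Veh peak, of ATF3 (count 43, percentile 31.7, 9.34 to 51.7). After KLA it had 5 monomers, with ATF3 at 84.4 (78.2 to 89.3), JunD at 79.5, Fos at 75.5, Jun at 60.8 and JunB at 48.0. CEBPa again had no Veh peak there and stood at 80.6 after KLA. In PPARg KO, ATF3 had a Veh peak there at 62.5. The locus 250 bp upstream had KLA peaks of ATF3, Fos, JunB and JunD between 46.1 and 53.2 and no Veh peak in any AP-1 list. The locus 6.2 kb upstream, 92 bp from the Mapkapk3 start, was weak in C57BL/6, with JunD at 19.5 in Veh, and JunD at 20.5, ATF3 at 28.7 and Fos at 7.02 after KLA. JunD stood in the middle of its lists there in BALB/cJ (57 in Veh and 58.0 after KLA) and in PPARg KO (50.1).

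Socs2, a regulator of growth hormone signalling, had AP-1 peaks in C57BL/6 only after KLA. The gene (ENSMUSG00000020027.18) lies on the minus strand at chr10:95385362-95417180. No C57BL/6 AP-1 Veh list had a peak in its window, and the 6 KLA lists had 16 peaks at 6 loci, which 14.2% of the other protein-coding genes reached or exceeded. The Socs2 window of 71.8 kb was longer than the median of 57.3 kb, and this share was not adjusted for window length. One intergenic locus past the 3′ end, 45.0 kb from the start (chr10:95371966-95372297), stood out. JunB was at percentile 95.7 (90.6 to 98.5), ATF3 at 95.4 (92.6 to 97.3), JunD at 93.7 (91.4 to 95.7) and Fos at 93.5 (89.1 to 96.7) after KLA, with Jun at 82.0 and FosL2 at 76.0. PU.1 and CEBPa had KLA peaks there (85.6 and 47.4) and no Veh peaks, and PPARg had a Veh peak (47.4).

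The other Socs2 loci were weaker. The locus 47.7 kb downstream had KLA peaks of 5 monomers between 6.98 (FosL2) and 46.1 (Fos), and lay nearer the start of Cradd than that of Socs2. The locus 2056 bp inside the gene had ATF3 at 1.15 and JunD at 13.0, the lowest part of their lists. At the promoter itself, within 1 kb of the start, the only AP-1 peak was BALB/cJ Fos after KLA (count 38, percentile 20.1), and PPARg had a Veh peak at 76.2 upstream of the start.

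Socs1, the inhibitor of JAK kinases downstream of interferon receptors, had 15 peaks and only 2 AP-1 loci (ENSMUSG00000038037.5, chr16:10782240-10785536, minus strand). No Veh list of any strain or genotype had an AP-1 peak in its window. After KLA, ATF3 (count 54, percentile 28.7, 10.1 to 46.6) and JunD (count 187, 23.0, 13.5 to 33.1) had a peak 934 bp upstream. The remaining 4 monomers had none in C57BL/6. BALB/cJ lists had ATF3 (14.5), JunD (41.2) and Fos (50.9, 37.4 to 62.3) at the same locus after KLA. The locus held none of the 6 motifs. PU.1 was bound closer to the start, 142 bp upstream in Veh (percentile 8.33) and 113 bp upstream after KLA (46.0).

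Spsb1, whose protein directs the inducible nitric oxide synthase to degradation, had 12 peaks in the longest window, 98.8 kb (ENSMUSG00000039911.13, chr4:149896283-149955043, minus strand). Its promoter locus, 112 bp upstream, was bound in C57BL/6 Veh by JunD alone (count 52, percentile 52.9, 25.9 to 72.2) and by no monomer after KLA. JunD was also the one monomer there in PPARg KO Veh (36.1) and in BALB/cJ after KLA (7.58). PPARg had a Veh peak there at 71.4. ATF3 alone was bound 1908 bp into the gene, at 14.3 (0 to 38.6) in Veh and 50.5 (34.3 to 63.4) after KLA, at a locus with a CRE match. The locus 11.6 kb into the gene had only low KLA peaks, ATF3 at 2.04 and JunD at 4.92. Jun, Fos, FosL2 and JunB had no peak within 20 kb of Spsb1 in any list. The authors name Spsb1 as an example of specific Jun binding, and their text does not place the site. A weak C57BL/6 Jun Veh peak (count 13, percentile 2.49) lay just past the window, 20.4 kb upstream of the start.

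Spsb3, a further SPRY and SOCS box gene, had Jun, JunD and Fos peaks at its promoter in both treatments in C57BL/6. The gene (ENSMUSG00000024160.16, chr17:24886643-24892152, plus strand) had 22 peaks at 3 AP-1 loci. The promoter locus was centred 274 bp upstream, 20 bp from the start of the divergent gene Nubp2, so binding to either promoter cannot be told apart. Fos had its only Veh peak near any of the 6 genes there, with a count of 46 at percentile 92.2 (81.7 to 96.2) of a list of 1804 peaks, and a count of 60 at 61.0 (42.4 to 75.2) of the 24365 peaks after KLA. Percentiles in lists of such different length do not measure a change. Jun was at 79.9 (58.6 to 92.1) in Veh and 25.1 (0 to 59.7) after KLA. JunD was at 40.6 (10.5 to 64.3) and 61.9 (54.9 to 68.0). ATF3 and FosL2 had no Veh peak and stood at 69.2 (58.8 to 77.6) and 22.7 (0.424 to 48.5) after KLA. The Jun ranges overlapped narrowly. PU.1 was near the top of both of its lists there, at 97.2 and 98.4, and PPARg was at 80.6. The loci 8.5 and 9.6 kb downstream lay near the starts of Mrps34 and Nme3, and their percentiles were 38.6 or lower.

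The limit of 20 kb left strong loci out at both Spsb1 and Socs1, and these were picked after their values were seen. A locus 24.9 kb upstream of the Spsb1 start had KLA peaks of all 6 monomers in C57BL/6, with Fos at percentile 99.9, JunD at 99.8, FosL2 at 99.6, JunB at 99.3, ATF3 at 99.0 and Jun at 98.6. In Veh it had ATF3 (79.4) and Fos (22.2) in C57BL/6, ATF3 (82.4), Jun (61.5) and JunD (90.1) in BALB/cJ, and ATF3 (89.0) and JunD (89.7) in PPARg KO. A locus 30.8 kb downstream of the Socs1 start was already at the top of the C57BL/6 Veh lists, with JunD at 99.97, Jun at 99.8, ATF3 at 99.3 and FosL2 at 98.7, and Fos at 82.5. It also had a Jun peak in PPARg KO (count 41, percentile 97.5). At Socs3, strong peaks just past the edge included Fos 20.2 kb upstream after KLA in C57BL/6 (percentile 98.7). The weak binding described for Socs1 and Spsb1 therefore holds for these windows only.

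**Figure D2:**
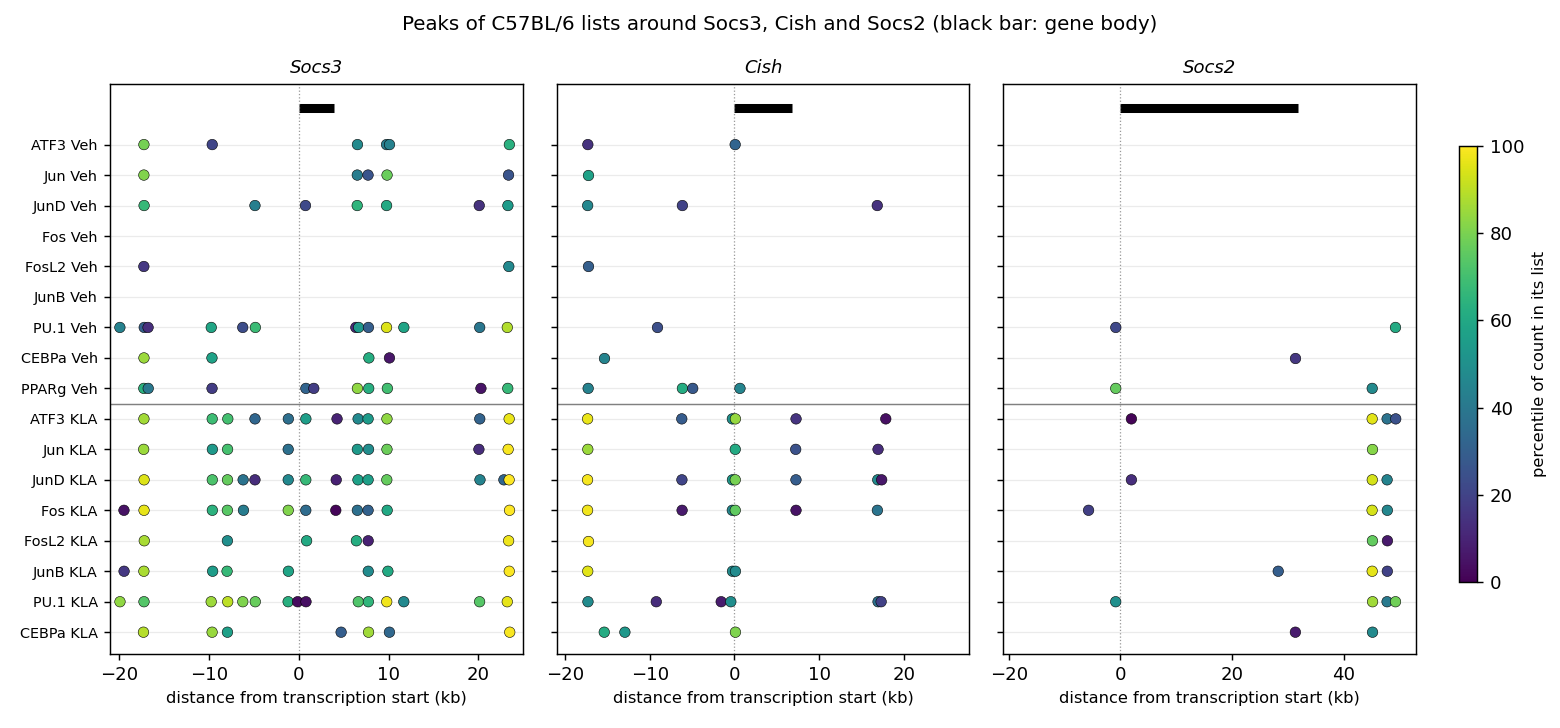
Positions of C57BL/6 peaks around Socs3, Cish and Socs2. The x axis is the distance from the GENCODE transcription start in kb, positive in the direction of transcription, each row is a list, the colour gives the percentile of count and the black bar is the gene body. In the AP-1 rows, the brightest points after KLA lie 23.4 kb downstream and 17.2 kb upstream of the Socs3 start. At Cish they lie 17.3 kb upstream of the start, and at Socs2 45.0 kb downstream. PU.1 after KLA was also bright at the Socs3 locus 9.9 kb downstream (percentile 98.0).

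Comparing the treatments list by list, KLA loci without a Veh peak of the same monomer made up 18 of 26 ATF3 loci (48.9% over the genome), 9 of 16 Jun loci (48.6%), 17 of 28 JunD loci (51.7%) and 7 of 10 FosL2 loci (75.3%) in the windows. One locus of each of ATF3, Jun and JunD was lost: part of the Socs3 binding 9.9 kb downstream for ATF3, the Spsb3 locus 9.6 kb downstream for Jun and the Spsb1 promoter for JunD. The KLA lists are longer than the Veh lists. With lists of equal length, the loci with KLA peaks only were 7 of 15 for ATF3 (33.7% over the genome), 9 of 16 for Jun (45.4%) and 10 of 19 for JunD (39.4%). Joined over the 6 monomers, 19 of the 35 KLA loci of C57BL/6 had no AP-1 Veh peak (43.8% over the genome), and 6 of the 35 had all 6 monomers (13.8%).

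Where a monomer was bound in both treatments, its percentile mostly rose with KLA. In the longer KLA lists a higher percentile need not be a higher rank. JunD at the Spsb3 promoter was number 11472 of 19653 peaks in Veh and number 12039 of 31640 after KLA. The percentile was higher after KLA at 7 of 8 ATF3 loci (64.2% of such loci over the genome), 6 of 7 Jun loci (44.0%), 9 of 11 JunD loci (56.2%) and 3 of 3 FosL2 loci (59.8%). The median percentile of these loci went from 36.9 to 83.8 for ATF3 (57.6 to 68.3 over the genome), from 57.2 to 77.4 for Jun (66.6 to 65.0) and from 42.7 to 61.9 for JunD (58.9 to 66.9). BALB/cJ gave 6 of 7 ATF3 loci (69.6%), 2 of 2 Jun loci (49.7%) and 8 of 8 JunD loci (47.8%). The loci of the monomers and strains are largely the same places, mostly at Socs3, so these counts are not independent of each other.

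In BALB/cJ, the leading loci of Socs3 and Socs2 were bound after KLA as well. At the Socs3 locus 23.4 kb downstream, BALB/cJ percentiles after KLA were 99.6 for Fos and JunD, 99.4 for JunB, 96.3 for ATF3 and 95.9 for Jun. At the Socs2 locus 45.0 kb downstream they were 91.1 for Fos, 90.1 for ATF3, 85.0 for JunB, 79.7 for JunD and 60.8 for Jun, with the JunD range (70.4 to 87.3) below that of C57BL/6. At the Cish locus 17.3 kb upstream all 5 were lower than in C57BL/6: JunD was at 84.3 (76.2 to 90.5) against 98.7 (97.7 to 99.3), ATF3 at 81.3 (73.1 to 87.5) against 96.6 (94.4 to 98.1), Fos at 88.7 (84.3 to 92.2) against 98.0 (95.9 to 99.1), JunB at 74.9 (62.0 to 84.8) against 95.5 (90.2 to 98.3) and Jun at 33.3 (5.10 to 59.9) against 85.1 (67.9 to 94.2). None of these 5 pairs of ranges overlapped. At the Cish locus 138 bp downstream the BALB/cJ values were not lower (ATF3 93.3, Fos 91.7, Jun 81.4, JunD 81.1 and JunB 73.4).

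The strains also differed in Veh. The Socs2 locus 45.0 kb downstream, without any AP-1 Veh peak in C57BL/6, had BALB/cJ Veh peaks of ATF3 (count 39, percentile 55.2, 32.6 to 72.2) and JunD (count 51, 60.4, 42.7 to 74.5). The Spsb3 promoter was the reverse, with Jun, JunD and Fos Veh peaks in C57BL/6 and no AP-1 Veh peak in BALB/cJ, where ATF3 (51.1), Fos (69.8) and JunD (60.7) were bound after KLA. Jun had C57BL/6 Veh peaks without a BALB/cJ peak at the Cish locus 17.3 kb upstream (57.2) and the Socs3 locus 9.9 kb downstream (77.1). At that Socs3 locus the C57BL/6 KLA peaks of Fos (60.0) and JunB (60.5) had no BALB/cJ counterpart either. At 7.7 kb downstream of Socs3, BALB/cJ had Veh peaks of ATF3 (63.4) and JunD (57) that C57BL/6 lacked. A BALB/cJ Jun Veh peak at percentile 91.7 lay at the edge of the Socs3 window, 19.8 kb upstream, but both strains had a peak there. The overlapping C57BL/6 Jun Veh peak (count 51, percentile 90.2) was centred 20.2 kb upstream, past that edge, and was not counted.

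Counted over all windows, C57BL/6 loci with a BALB/cJ peak of the same list were 6 of 9 for ATF3 Veh (63.0% over the genome), 2 of 8 for Jun Veh (48.6%), 7 of 12 for JunD Veh (75.7%), 17 of 26 for ATF3 KLA (76.4%), 10 of 16 for Jun KLA (46.4%), 21 of 28 for JunD KLA (74.0%), 19 of 23 for Fos KLA (89.4%) and 10 of 14 for JunB KLA (79.2%). Of these 8 shares, 5 were below those over the genome and 3 above (ATF3 Veh, Jun KLA and JunD KLA). With 8 to 28 loci a list, no order among the monomers can be read from them.

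**Figure D3:**
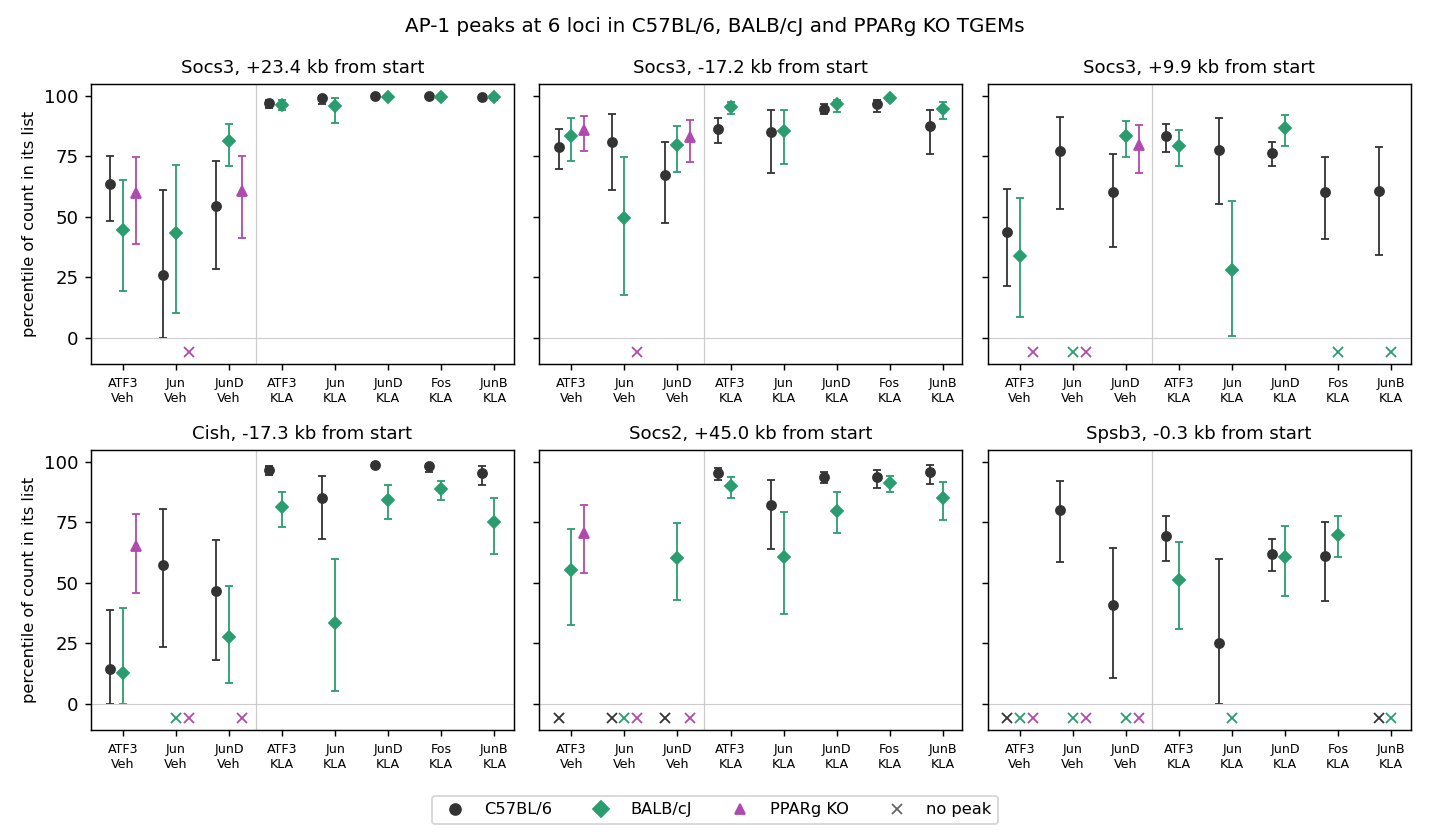
Percentile of count (y axis, 0 to 100) of AP-1 peaks at 6 loci in C57BL/6 (circles), BALB/cJ (diamonds) and PPARg KO TGEMs (triangles, Veh only), by monomer and treatment (x axis). Bars are percentiles at the exact 95% Poisson bounds of the count and crosses mark lists without a peak at the locus. BALB/cJ lies below C57BL/6 after KLA at the Cish locus, and no PPARg KO Jun peak appears at any of the 6 loci.

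In PPARg knockout TGEMs, the Jun Veh list had no peak in the windows of the 6 genes (16.4% of all protein-coding genes had one). ATF3 had peaks at 3 genes (55.6%) and JunD at 3 (49.3%). Just past the edge of the Socs3 window, knockout Jun had peaks 20.1 and 21.9 kb upstream (counts 15 and 16, percentiles 24.8 and 33.0). Wild-type Jun Veh peaks that overlapped them stood at 90.2 and 89.5. Of the wild-type C57BL/6 Veh loci in the windows, 0 of 8 for Jun had a knockout peak (21.8% over the genome), 5 of 9 for ATF3 (78.2%) and 7 of 12 for JunD (53.5%). The knockout Jun list is the shortest of the 3 (4290 peaks against 15548 in wild type). When the wild-type list was reduced to its 4290 strongest peaks, 3 of the members' loci remained in it. These were the Socs3 loci 17.2 kb upstream and 9.9 kb downstream and the Spsb3 promoter. Of the 3, 0 had a knockout peak (52.6% over the genome). With 6 genes and at most 12 loci a list, no difference among the monomers can be read from these counts.

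At the Socs3 locus 17.2 kb upstream, where knockout Jun was absent, ATF3 and JunD stood at 85.8 (77.1 to 91.8) and 82.8 (72.8 to 90.1) of their knockout lists, against 79.0 and 67.0 in wild type. Loci shared by wild type and knockout stood higher in the knockout lists over the whole genome as well, with medians of 58.5 and 67.4 for ATF3 (73.1% of loci higher) and 63.8 and 71.4 for JunD (69.4% higher). The locus 23.4 kb downstream likewise kept ATF3 (59.7) and JunD (60.8). The Cish locus 17.3 kb upstream kept ATF3, at 65.0 (45.9 to 78.4) against 14.3 (0 to 38.6) in wild type, and had no JunD peak. The Spsb3 promoter had no knockout peak of any of the 3 monomers. ATF3 was bound in the knockout at 6 loci without a wild-type ATF3 peak, the highest being the Socs2 locus 45.0 kb downstream (count 44, percentile 70.6, 53.9 to 82.1), which is also the one bound in BALB/cJ Veh. The deletion itself could not be checked in these lists, as no knockout PPARg list was used here.

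In wild-type Veh, PPARg overlapped most AP-1 peaks at these genes, as it did over the genome. It had a peak in the window of all 6 genes (61.9% of all protein-coding genes) and overlapped 8 of 8 Jun Veh peaks (65.8% over the genome), 10 of 12 JunD Veh peaks (69.2%) and 6 of 9 ATF3 Veh peaks (60.4%). Over AP-1 loci joined, 13 of 17 Veh loci overlapped a PPARg peak (59.0%). PU.1 had a peak at 6 of the 6 genes in Veh (65.6%) and at 5 after KLA (63.3%), and overlapped 9 of 17 AP-1 loci in Veh (57.2%) and 21 of 35 after KLA (53.1%). CEBPa had a peak at 4 genes in Veh (37.2%) and 3 after KLA (37.4%), and overlapped 5 of 17 (31.7%) and 10 of 35 loci (29.1%). The counts over loci for PU.1 and CEBPa were near those over the genome. Those for PPARg were above the genome shares but rest on 8 to 17 peaks or loci, so no difference can be read from them.

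The 43 loci were searched for exact motifs in their central 200 bp on both strands, beside all AP-1 loci with sequence. The STAT site TTCNNNGAA, the kind of element through which STATs act, was in 10 of 43 loci (6.34% of all loci), 7 of them at Socs3. The TRE was in 8 of 43 (23.4%), 4 of them at Cish, and the CRE in 3 (5.94%). The PU.1 site was in 4 (17.9%), the CEBP site in 5 (14.5%) and the NF-kB consensus in 3 (4.85%). The 3 NF-kB matches were at Socs3 8.0 kb upstream, Socs2 45.0 kb downstream and Cish 10.3 kb downstream. The Cish locus had no C57BL/6 AP-1 peak in either treatment, only a BALB/cJ JunD KLA peak (percentile 2.65). In C57BL/6 the Socs3 and Socs2 loci had AP-1 peaks after KLA only, but the Socs2 locus had Veh peaks in BALB/cJ and PPARg KO. Of the 43 loci, 26 had no C57BL/6 AP-1 Veh peak, and 7 of these had no C57BL/6 AP-1 peak at all. Matches to different motifs can overlap, and a locus can count under several. Loci of 1 gene share its surroundings and are not independent.

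Other genes of the pathway were described by fixed lists and the same windows. Of 6 further SOCS box genes, 5 had a C57BL/6 AP-1 peak in Veh and 6 after KLA, 4 of them with all 6 monomers. Spsb2 was the only one of these with a peak in all 12 lists, and Socs7, like Socs2, had peaks in 0 Veh and 6 KLA lists. Of 11 JAK kinases and STATs, 11 had a Veh peak and 10 a KLA peak, 6 with all 6 monomers. There were 7 of them with peaks in 10 lists each, Jak1, Jak2, Tyk2, Stat2 and Stat3 among them, and Jak3 had a peak in 1. Of 11 cytokine receptor genes, 11 had a peak in each treatment and 8 had all 6 monomers after KLA, with Il6ra, Il6st, Il4ra and Csf2rb in 11 lists each. Of 7 other negative regulators, 6 had a Veh and 7 a KLA peak, and Ptpn1 and Pias4 were in 11 lists each. The 6 genes of the ubiquitin ligase that SOCS boxes recruit had other counts: 2 had a Veh peak, 6 a KLA peak and 0 all 6 monomers, with Rnf7 in 7 lists and Cul5 in 6. None of these genes was without an AP-1 peak. A peak within 20 kb of several genes counted for each of them, so neighbouring genes of a list are not independent. The median number of KLA lists was 2 for the ligase genes, as for all protein-coding genes, and 6 for each of the other 4 lists. Of all 22028 protein-coding genes, 12401 had a Veh peak, 13037 a KLA peak and 4650 all 6 monomers.

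**Figure D4:**
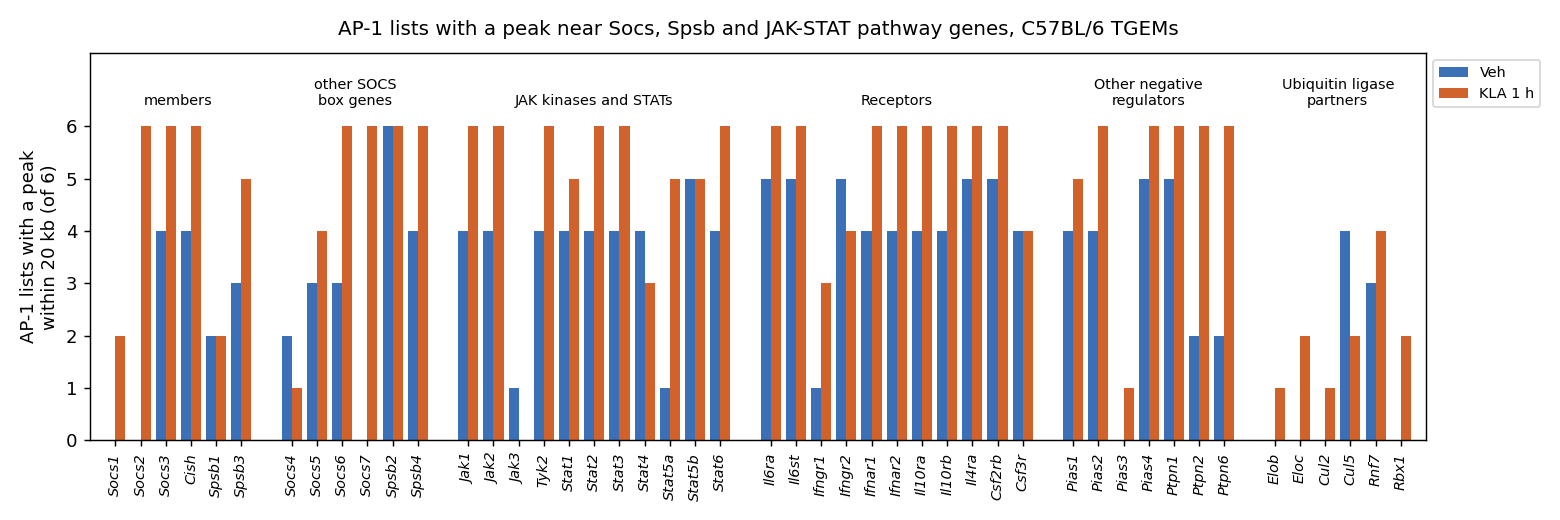
Number of C57BL/6 AP-1 lists (y axis, of 6 per treatment) with a peak within 20 kb of each gene (x axis), for the 6 members and 5 lists of pathway genes, with Veh and KLA as separate bars. Socs1, Socs2, Socs7, Pias3 and 4 ubiquitin ligase genes have no Veh list, and the ubiquitin ligase genes have at most 4 lists in either treatment.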

How the data were processed

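ChIP-seq peak lists of 6 AP-1 monomers, PU.1, CEBPa and PPARg in TGEMs were used as deposited. Per the methods and the labels, the authors aligned reads with Bowtie2 (version not given in the sources used here) to mm10, mapped BALB/cJ reads to a strain genome and shifted them back, called peaks with HOMER against an input, and kept peaks of replicate experiments with an IDR below 0.05. The deposited count of a peak is a whole number that was not scaled to library size, and how the replicates' counts were combined is not stated. The deposited score is the scaled IDR.

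Peaks were assigned by midpoint to gene windows and joined to loci (overlap of at least 1 bp) with Python 3.11.15, pandas 2.3.3 and numpy 2.4.6. Percentiles were taken within a list with ties split, and Poisson bounds with scipy 1.17.1. PCR reads are not independent molecules. Sequence came from the RefSeq GRCm38.p6 assembly, which is mm10, and a RefSeq start was found for 5 of the 6 genes. It lay downstream of the GENCODE start by 681 bp at Socs3, 633 bp at Cish and 37 bp at Spsb1. Socs1 and Spsb3 had a RefSeq start at the GENCODE start, and Spsb3 had others as well. The scripts were tested on simulated data. Named loci were promoter loci (within 1 kb of the start), the 3 loci per gene with most C57BL/6 AP-1 lists, and loci where ATF3, Jun and JunD differed in Veh or strains or genotypes differed above percentile 50. A few weaker loci were added for completeness after their values were seen. The 4 inputs have no list and were not used. The members and lists were chosen with earlier results of these data known.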

Additional observations from a re-analysis of the deposited data

Results flagged for a closer look

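JunD peaks were called in opposite treatments in the strains at 2 loci, each with 1 list per condition, and neither difference was tested. At the Socs3 locus 7.7 kb downstream of the start, C57BL/6 JunD had a peak only after KLA, at percentile 55.9 of its list, and BALB/cJ JunD had one only in Veh, at percentile 57. At the Spsb1 promoter locus, C57BL/6 JunD had a peak only in Veh, at percentile 52.9, and BALB/cJ JunD only after KLA, at percentile 7.58 (0 to 29.1). The deposited score of that BALB/cJ peak was 549, where the lowest score in any list was 540. It only just passed the filter, so an opposite response to KLA cannot be read from it.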

How the results depend on the processing

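Of 118 alternative counts, 59 stayed within 1.5 times the value reported and 59 did not, nearly all because windows or lists were made larger or smaller. With windows of 5 kb, there were 164 peaks and 22 AP-1 loci. ATF3, Jun and JunD had 11, 4 and 10 loci after KLA only and 3, 3 and 4 in both treatments. Loci shared by the strains were 1, 0 and 2 for ATF3, Jun and JunD in Veh and 9, 2, 10, 8 and 4 for ATF3, Jun, JunD, Fos and JunB after KLA, and those shared with PPARg KO were 2 for ATF3 and 3 for JunD. With 50 kb, there were 735 peaks and 82 loci, with 29, 19 and 26 loci after KLA only and 17, 13 and 20 in both. The strains then shared 13, 6 and 14 in Veh and 33, 21, 33, 32 and 18 after KLA, and PPARg KO shared 14 for ATF3, 3 for Jun and 13 for JunD. With the strongest 50% of each list, there were 198 peaks and 22 loci, with 10 ATF3 and 9 JunD loci after KLA only and 2, 3 and 4 in both. The strains shared 1, 0 and 4 in Veh and 10, 5, 12 and 9 for ATF3, Jun, JunD and Fos after KLA, PPARg KO shared 2 for ATF3 and 3 for JunD, and the TRE and STAT site were in 4 and 5 loci. With lists of equal length, the loci after KLA only fell to 7 for ATF3 and 10 for JunD, and Jun Veh loci shared by the strains to 1. In the central 100 bp the NF-kB consensus was in 1 locus. Joining peaks by centres within 100 bp moved no count by over 1.5 times.

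Ranked by the deposited score, 130 of 221 named peaks stayed within the counting interval of their percentile and 91 did not. The score is tied at its maximum for most peaks of many lists, so it orders strong peaks little. The absence of Jun in PPARg KO held for windows of 20 kb and not for 50 kb. No paired analysis was possible because each condition has 1 list.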
